A study of Mus musculus with 13 samples.

Results

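The 9 genes Pax6, Nkx2-9, Nkx2-2, Sox1, Pax3, Olig2, Nes, Neurog2 and Zic1 were followed in mouse ES cells with and without a phosphomimetic form of CTCF, out of 24421 genes counted in every library. They are the rows under these symbols in the tables of replicate 1 and replicate 2, and all 9 had at least 1 read in at least 1 library. They were selected on the same difference, with doxycycline (dox) against without, that is given here for them, so their differences are a description and carry no test. The cells were F1-2.1, a female ES cell line (CAST/Ei x 129/Sv/Jae) cultured with LIF over γ-irradiated mouse fibroblast feeders. All 4 libraries came from clone A2, a line that carries a dox-inducible, FLAG-tagged CTCF S224E transgene expressed together with EGFP, and that still has its own Ctcf. In S224E, a serine at which CTCF is phosphorylated is replaced by glutamate, which imitates a phosphate. The S224E +dox group (2 libraries) had 1 μg/mL dox for 6 days, and the S224E −dox group (2 libraries) had none. Since 1 clone was used and no RNA library with dox but without the transgene was analysed here, the effects of dox and of S224E cannot be told apart.

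The neural tube is patterned by transcription factors that divide it into domains of progenitors. Pax6 is broad in the forebrain and the intermediate cord, Nkx2-2, Nkx2-9 and Olig2 mark ventral domains that depend on Sonic hedgehog (Shh), and Pax3 and Zic1 mark dorsal domains. Sox1 is among the earliest genes switched on when ES cells take a neural fate, Nes encodes the intermediate filament nestin of neural stem cells, and Neurog2 commits progenitors to make neurons. In ES cell cultures with LIF, most cells are pluripotent and such genes are low.

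Reads counted on exons came to 22899107 to 30206085 per library. A floor of 3 reads corresponded to 0.0982 to 0.133 CPM, a read count scaled to sequencing depth, here with TMM library sizes. ES cell markers were abundant in all 4 libraries, with the CPM of 12 markers (Pou5f1, Nanog and others) summing to 6164 to 7706. The Ctcf counts were 327 and 329 CPM with dox and 295 and 304 CPM without (log2 fold change 0.13 ± 0.09 SE, edgeR adjusted p = 0.475). Transgene and endogenous transcripts were not separated, and whether transgene reads were counted under Ctcf is not stated. The paper also did not find Ctcf differentially expressed. It did find reads with the glutamate codon of S224E, and called the expression modest. One +dox library stood apart in fibroblast genes. The CPM of 25 fibroblast markers summed to 2281 in +dox replicate 1, against 865 in +dox replicate 2 and 790 and 789 in the −dox libraries, so the members are also given by replicate.

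The 250 bases before the transcription start are printed for Pax6, Nkx2-9 and Sox1, the members with the largest differences at more than 1 CPM, because they are the stretches next to which the 3 transcripts begin. They were taken from RefSeq on GRCm38.p6 and run 5′ to 3′ on the gene's own strand. Capitals mark CCCTC, the core of the CTCF site, or ACAAT, a SOX site, on either strand (GAGGG and ATTGT are their reverse complements).
Pax6, the first of 2 listed starts, chr2:105668646-105668895, plus strand: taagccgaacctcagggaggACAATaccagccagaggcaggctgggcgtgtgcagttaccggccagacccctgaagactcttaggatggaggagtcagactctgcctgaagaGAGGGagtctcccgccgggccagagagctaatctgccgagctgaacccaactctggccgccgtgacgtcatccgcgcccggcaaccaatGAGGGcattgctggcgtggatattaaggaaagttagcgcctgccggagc
Nkx2-9, chr12:56613285-56613534, minus strand: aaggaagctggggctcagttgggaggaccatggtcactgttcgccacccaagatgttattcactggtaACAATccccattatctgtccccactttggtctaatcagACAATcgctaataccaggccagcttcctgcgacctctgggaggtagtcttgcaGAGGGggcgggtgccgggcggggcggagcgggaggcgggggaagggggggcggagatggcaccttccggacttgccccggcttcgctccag
Sox1, chr8:12395269-12395518, plus strand: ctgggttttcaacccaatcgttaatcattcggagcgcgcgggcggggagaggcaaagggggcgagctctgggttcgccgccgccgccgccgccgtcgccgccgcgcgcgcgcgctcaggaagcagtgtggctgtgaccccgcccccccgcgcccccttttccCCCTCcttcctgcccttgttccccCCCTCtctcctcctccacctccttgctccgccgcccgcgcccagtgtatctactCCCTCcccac
The Pax6 stretch held 2 matches to CCCTC and 1 to ACAAT, that of Nkx2-9 held 1 and 2, and that of Sox1 held 3 and none. The second Pax6 start, at chr2:105682213-105682462, held neither. Entries were found for 8 of the 9 members, all but Pax3. CCCTC lay in at least 1 stretch of all 8 and ACAAT in 7 of 8, against 60.5% and 27.7% of 32851 promoters of the same length. The members were counted by gene, with either Pax6 start allowed, and the background by promoter, so the shares are not in like units. The letters TGGGTGGTC (a GLI site) and AGGTGTGA (a T-box motif) were in none of the members' stretches and in 0.225% and 1.12% of all promoters. The bases G and C made up 60.8% of the first and 47.6% of the second Pax6 stretch, 61.6% for Nkx2-9 and 71.2% for Sox1, beside a median of 52.4%. A match of 5 letters is a description of the sequence and not evidence that a factor binds there.

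Of the 9 members, 6 were higher in both +dox libraries than in both −dox libraries and none was lower in both. Among the 20044 genes tested, 23.3% were higher and 23.7% lower in this sense. With edgeR's quasi-likelihood test over all genes and an adjusted p-value below 0.01, the threshold used throughout, 2 members (Pax6 and Nkx2-9) were among the genes called higher, which were 0.0798% of those tested, while 0.519% were called lower. The count of called members was 1 with total counts in place of TMM, 3 without +dox replicate 1, and 0 with the stricter filter filterByExpr, with deviances adjusted for small counts, without −dox replicate 1 or without −dox replicate 2. With a replicate block in the fit, the count of called members was 3. Nothing is read from these counts, since the members were picked on this contrast. The median log2 fold change of the members was 0.77, at 0.92 in replicate 1 and 0.63 in replicate 2, and that of all genes tested was 0.01. Because these are bulk samples, more cells that express a gene and more RNA per cell cannot be told apart.

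**Figure D1:**
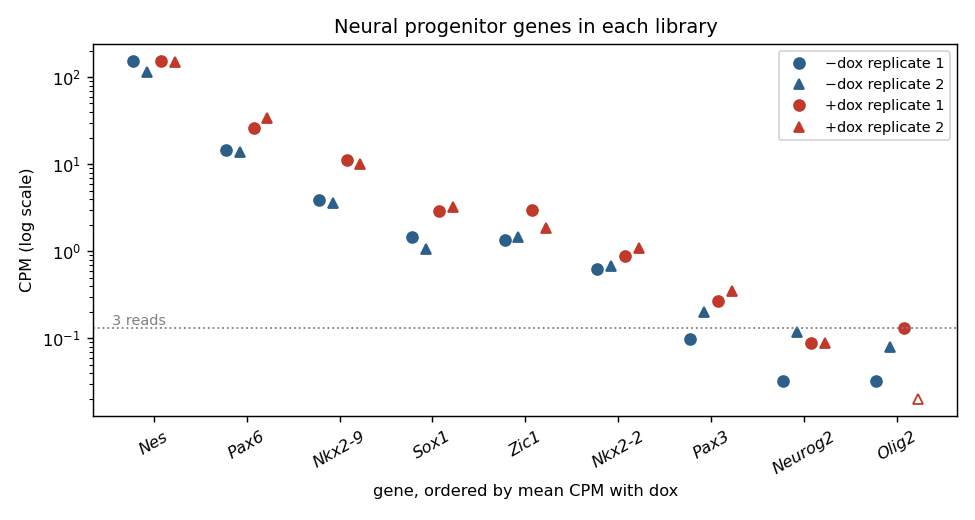
CPM of the 9 members in each library, on a log scale, with blue for −dox, red for +dox, circles for replicate 1 and triangles for replicate 2. The dotted line is the level of 3 reads in the shallowest library and the open triangle is a value of 0 (Olig2). Pax6, Nkx2-9 and Sox1 lie higher in both +dox libraries, Nes overlaps between the groups, and Olig2 and Neurog2 lie at or below 3 reads.

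Per length of transcript the members covered a wide range. Without dox, Nes was highest, at 25.2 and 19.0 RPKM (CPM per kilobase of transcript) in replicates 1 and 2, followed by Pax6 at 3.96 and 3.79 and Nkx2-9 at 3.09 and 2.90. Zic1 (0.401 and 0.441 RPKM) lay above Sox1 (0.365 and 0.267 RPKM) and Nkx2-2 (0.304 and 0.331 RPKM), which overlapped each other. Pax3, Neurog2 and Olig2 stayed below 0.06 RPKM. With dox, Pax6 (7.19 and 9.26 RPKM) and Nkx2-9 (8.98 and 7.98 RPKM) overlapped, whereas Nes was at 24.9 and 24.4. The middle of the order was then held by Sox1 (0.727 and 0.803 RPKM), Zic1 (0.890 and 0.550 RPKM) and Nkx2-2 (0.434 and 0.535 RPKM). Sox1 overlapped with Zic1 there, and lay above Nkx2-2.

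Among the ventral genes, Nkx2-9 showed the largest difference of all members. Nkx2-9 (mm9 chr12:57712384-57714271, minus strand), a homeobox gene of the most ventral neural tube, was read 253 and 228 times with dox and 118 and 91 times without, or 11.2 and 9.98 CPM against 3.86 and 3.63. Both +dox libraries lay well above both −dox libraries. The means were 10.6 ± 0.887 CPM with dox and 3.75 ± 0.167 without (SD, n = 2), a 2.83-fold difference (log2 1.50 ± 0.22 SE). The ratio was much the same in the replicates, at 2.91 (95% counting interval 2.33 to 3.65) in replicate 1 and 2.75 (2.15 to 3.55) in replicate 2. Such intervals, here and below, cover counting error only. They leave out the spread between libraries and are no test of a member. Of 13911 genes that averaged 1 CPM or more, 65 had a larger log2 fold change.

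Nkx2-2 (chr2:147008888-147012138, minus strand), which sets the identity of the progenitors next to the floor plate, was read 20 and 25 times with dox and 19 and 17 times without. This was 0.888 and 1.10 CPM against 0.622 and 0.678, so the groups did not overlap. The ratios of 1.43 (0.724 to 2.83) and 1.62 (0.839 to 3.19) had counting intervals that included 1, so with these few reads they are uncertain even within a replicate. The interval of Nkx2-2os, on the opposite strand, overlaps Nkx2-2 by 2320 bases. Nkx2-2os had 2 and 0 reads with dox and 0 and 0 without. Olig2 (chr16:91225795-91228922, plus strand), the gene of motor neuron and oligodendrocyte progenitors, had 3 and 0 reads with dox and 1 and 2 without. All 4 values were at or below the floor, and no fold is given.

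Pax6 (chr2:105515901-105538567, plus strand), a paired-box factor of the forebrain, eye and cord, had 594 and 776 reads with dox and 444 and 349 without. The libraries were at 26.4 and 34.0 CPM against 14.5 and 13.9, with no overlap and with the wider spread among the +dox pair. Means were 30.2 ± 5.37 and 14.2 ± 0.444 CPM (SD, n = 2), which made Pax6 2.12-fold higher with dox (log2 1.09 ± 0.17 SE), and 189 genes of at least 1 CPM had a larger log2 fold change. The ratio was 1.82 (1.60 to 2.06) in replicate 1 and 2.44 (2.15 to 2.78) in replicate 2, and these intervals did not overlap. The summed fibroblast markers were at 2281 CPM with dox and 790 without in replicate 1, and at 865 and 789 in replicate 2. Their part in the Pax6 value was not tested. The 3′ end of Pax6, as counted, overlaps by 1091 bases with the interval of Elp4, a gene on the opposite strand. In the GENCODE vM1 annotation, which was not used for the counts, exons of Pax6 and Elp4 share 5542 bases. Whether the counting used strand is not stated, and Elp4 itself had 463 and 542 reads with dox and 738 and 587 without.

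Sox1 (chr8:12395519-12399555, plus strand), a SOXB1 factor of the neural plate, was read 66 and 74 times with dox and 45 and 27 times without. The 2.93 and 3.24 CPM with dox lay above the 1.47 and 1.08 CPM without. The means, 3.09 ± 0.218 and 1.27 ± 0.281 CPM (SD, n = 2), differed 2.40-fold (log2 1.27 ± 0.31 SE), and 121 genes of at least 1 CPM had a larger log2 fold change. Both counting intervals, 1.34 to 2.97 around a ratio of 1.99 in replicate 1 and 1.92 to 4.87 around 3.01 in replicate 2, lay above 1 and overlapped. Sox1 lies wholly within the interval of the RNA gene Gm5607 on the same strand, which was given 0 and 1 reads with dox and 0 and 2 without.

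Of the dorsal genes, Zic1 had ratios less even between the replicates than Nkx2-9, as had Pax6 and Sox1, and Pax3 had few reads. Zic1 (chr9:91255183-91260637, minus strand), a zinc finger factor of the dorsal neural tube, was at 2.98 and 1.84 CPM with dox and 1.34 and 1.47 CPM without (67, 42, 41 and 37 reads). The groups did not overlap, but the ratio was 2.22 (1.48 to 3.35) in replicate 1 and 1.25 (0.783 to 2.00) in replicate 2. The higher of these values came from +dox replicate 1, the library with the highest sum of fibroblast markers. Their part in the Zic1 value was not tested. Without that library the log2 fold change of Zic1 was 0.39 in place of 0.77, while Pax6 was at 1.25, Nkx2-9 at 1.41 and Sox1 at 1.33. Pax3 (chr1:78097842-78193711, minus strand), a paired-box factor of the dorsal tube and neural crest, had 6 and 8 reads with dox and 3 and 5 without. Its ratios, 2.71 (0.580 to 16.8) and 1.76 (0.507 to 6.83), had wide counting intervals that included 1 at this depth. Pax3 was counted on transcripts of different length in replicates 1 and 2 (3858 and 3365 bases).

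Nes and Neurog2 had overlapping groups. Nes (chr3:87775015-87784373, plus strand) was at 152 and 149 CPM with dox and 154 and 116 CPM without, which covers the range of the +dox pair. The means were 151 ± 2.39 and 135 ± 27.0 CPM (SD, n = 2), and the ratio was 0.989 (0.946 to 1.03) in replicate 1 and 1.28 (1.22 to 1.35) in replicate 2. Thus the most deeply counted member, at 2911 to 4708 reads a library, was one in which the −dox libraries differed from each other by more than the group means did. Neurog2 (chr3:127336063-127338549, plus strand) had 2 and 2 reads with dox and 1 and 3 without, at or below the floor in all 4 libraries.

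**Figure D2:**
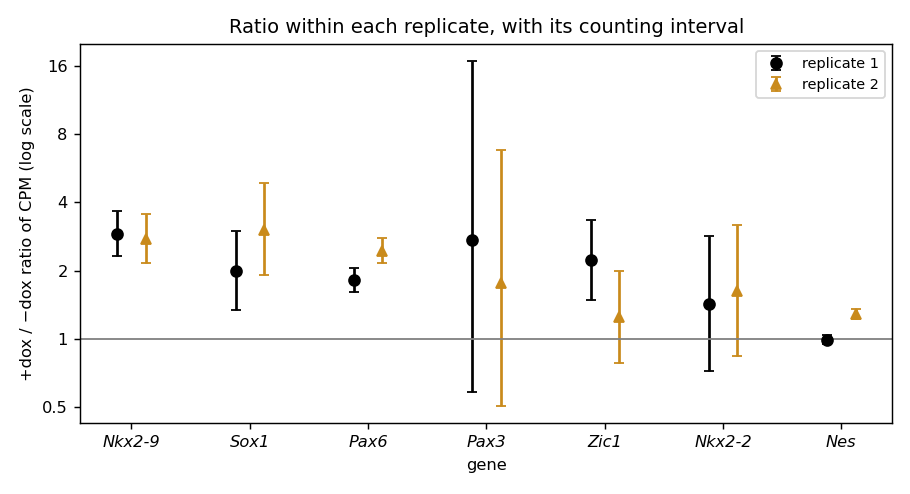
Ratio of +dox to −dox CPM within replicate 1 (black circles) and replicate 2 (orange triangles) for the 7 members above 3 reads in some library, on a log scale, with exact 95% intervals that cover counting error only. Both intervals lie above 1 for Nkx2-9, Sox1 and Pax6, both include 1 for Pax3 and Nkx2-2, and for Zic1 and Nes 1 interval lies above 1 and the other includes it. The intervals leave out the spread between libraries and are no test of the members, which were selected on this difference.

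The genes next to the members on the chromosome were not used to pick them. They were the nearest tested gene on each side and any that overlaps, 21 genes in all. With edgeR, 0 of the 21 were called, and 2 had an unadjusted p below 0.05, a level that 8.48% of all genes tested reached with higher and 9.31% with lower values in the +dox libraries. Both were higher, namely Crabp2, a retinoic acid binding protein gene 17.7 kb from Nes (log2 0.55), and Epha4, an ephrin receptor gene 586 kb from Pax3 (log2 0.31), both named after their values were seen. DESeq2 also called 0. Of all genes tested, edgeR called 0.0798% higher and 0.519% lower, and only 9 of the 21 averaged 1 CPM or more. A count of 0 among so few genes therefore says little. The median log2 fold change of the 21 was −0.01, with 19.0% higher and 9.52% lower in both +dox libraries. Next to Pax6, Elp4, an Elongator subunit gene, was at 22.2 ± 2.24 CPM with dox and 23.8 ± 0.543 without (log2 −0.10 ± 0.15 SE, edgeR adjusted p = 0.756). Immp1l, a mitochondrial peptidase gene 206 kb away beyond Elp4, also had a log2 fold change of −0.10 (± 0.39 SE), and Pax6os1, 5.41 kb away on the other side, had 1 read in all libraries together. Next to Nkx2-9, the thyroid and ventral forebrain factor Nkx2-1 (76.3 kb away) had 3 and 6 reads with dox and 1 and 3 without, and Pax9 (82.2 kb away) had 13 and 16 against 7 and 16. At these counts the log2 fold changes had wide errors, at 1.39 ± 1.1 SE for Nkx2-1 and 0.59 ± 0.59 SE for Pax9. That of Pax9 was 1.09 in replicate 1 and 0.12 in replicate 2. The read counts of the neighbours of Sox1 were near 0, with 1 read in all for Tex29 (540 kb away) and 4 and 3 against 3 and 0 for Spaca7 (173 kb away).

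Other genes of neural development were counted in 5 lists, which hold no member and which were drawn up with earlier results of these data known. Of 107 tested genes in the 5 lists, edgeR called 1 higher (Foxd3) and 3 lower (Foxa2, Smo and Prom1), whereas DESeq2 called 3 higher and 3 lower, and edgeR at a threshold of 0.05 gave 6 higher and 3 lower. The median log2 fold change was 0.15, at 0.16 in replicate 1 and 0.04 in replicate 2. It was 0.07 over the genes of at least 1 CPM. With 1 library left out, it was 0.0097 without +dox replicate 1 and 0.13 to 0.17 without each of the others. The median of all genes tested, with all libraries, was 0.01. Both +dox libraries were higher for 34.6% and lower for 21.5% of these genes, beside 23.3% and 23.7% of all genes. The number of calls turned on the libraries: 0 without −dox replicate 1 or without −dox replicate 2, 18 (9 in each direction) without +dox replicate 1 and 12 (8 higher, 4 lower) without +dox replicate 2. A fit without a library leaves 1 in that group, which is assumed to vary like the other group. It was also 0 with filterByExpr, where the adjusted p-values of these 4 genes were 0.0130 to 0.0413 in edgeR, and 0 with deviances adjusted for small counts.

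Of 27 further transcription factors of the neural plate, forebrain and midbrain, edgeR and DESeq2 called 0, and 8 had an unadjusted p below 0.05, with 4 higher and 4 lower. Their median log2 fold change was 0.21 (0.19 in replicate 1, −0.08 in replicate 2), and it was −0.02 without +dox replicate 1 and 0.13 without +dox replicate 2. Among those of at least 1 CPM, the log2 fold change was 0.73 for Lhx2, an eye and forebrain factor, 0.70 for En2, a midbrain factor, and 0.66 for Gbx2, a hindbrain factor also found in ES cells. None of these 3 passed the threshold. Sox2, which shares the SOXB1 family with Sox1 but is also a core gene of ES cells, was at 815 ± 21.6 CPM with dox and 732 ± 68.4 without (log2 0.15).

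The Shh pathway and other ventral genes gave 2 calls with edgeR, both lower, and 3 with DESeq2, of which 1 (Gli1) was higher. Of 23 tested genes, 2 fell and 0 were called higher by edgeR (6 had an unadjusted p below 0.05, 3 in each direction), and the median log2 fold change was −0.06, with no stable sign (0.13 without +dox replicate 2, −0.00045 without +dox replicate 1). Smo, the signal transducer of the pathway, was at 83.7 and 82.9 CPM with dox and 138 and 137 CPM without (log2 −0.73 ± 0.10 SE, edgeR adjusted p = 0.00225). Foxa2, a factor of the floor plate and also of the endoderm, fell from 10.4 ± 3.05 to 1.50 ± 0.0775 CPM (log2 −2.79 ± 0.28 SE, edgeR adjusted p = 0.00046). Foxa2 is counted again in the list of primitive streak and mesendoderm markers below. Hhip, a target and inhibitor of hedgehog ligands, had 85 and 104 reads with dox and 59 and 52 without (log2 1.06 ± 0.27 SE), and did not pass (edgeR adjusted p = 0.0614). Nkx6-2 (log2 0.75), a ventral homeobox gene, and the ligand gene Ihh (log2 0.76) did not pass either. The other genes of the pathway given here, Gli1, Ptch1 and Shh, are named after their values were seen. Gli1, a target that reports pathway activity, was at 57.5 ± 4.35 against 36.8 ± 6.11 CPM (edgeR adjusted p = 0.0319, and below the threshold when +dox replicate 1 or +dox replicate 2 was left out), while Ptch1, the receptor and also a target, was at 93.8 ± 23.3 against 98.6 ± 9.97 CPM. Shh had 2 and 2 reads with dox and 7 and 16 without.

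Of 18 dorsal neural tube and neural crest genes, 1 rose and 0 fell, with a median log2 fold change of 0.51 (0.33 without +dox replicate 2) and 6 genes at an unadjusted p below 0.05, all higher. Foxd3, a neural crest factor that ES cells also express, rose from 60.9 ± 11.0 to 106 ± 0.0504 CPM (log2 0.81 ± 0.12 SE, edgeR adjusted p = 0.00574). It was not called with total counts in place of TMM (adjusted p = 0.0124). Tfap2a, a factor of the crest and surface ectoderm, was at 3.68 ± 0.244 against 1.70 ± 0.591 CPM, and Msx2, a homeobox gene of the dorsal midline, had a log2 fold change of 0.66. Snai2, which fibroblasts also express, had a log2 fold change of 2.02 in replicate 1 and 0.17 in replicate 2. The sum of the fibroblast markers moved with it, and their part in the Snai2 value was not tested.

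Among 20 proneural and neuronal genes, edgeR called 0 and DESeq2 called 1 (Neurod1). At an unadjusted p below 0.05 there were 8, with 7 higher and 1 lower, and the median log2 fold change was 0.36 (0.21 without +dox replicate 2). Neurod1, a factor of neurons and endocrine cells, was at 12.7 ± 0.315 CPM with dox and 5.63 ± 0.134 without (log2 1.17 ± 0.20 SE), with an edgeR adjusted p of 0.0102, just above the threshold. The endocrine factor Neurog3 had 30 and 48 reads with dox and 14 and 17 without (edgeR adjusted p = 0.0665). Insm1, a zinc finger gene shared by both lineages, had a log2 fold change of 0.74, and Map2, a gene of neuronal microtubules, one of −0.47. In this list the groups did not overlap for 50.0% of genes upwards and 15.0% downwards, beside 23.3% and 23.7% of all genes.

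Of 19 genes of neural stem cells and radial glia, 1 fell and 0 were called higher (8 had an unadjusted p below 0.05, 3 higher and 5 lower), and the median log2 fold change was −0.02 (−0.18 without +dox replicate 1, 0.01 without −dox replicate 1). Prom1, a membrane glycoprotein gene of many stem cells and epithelia, had 118 and 129 reads with dox and 418 and 466 without (log2 −1.56 ± 0.21 SE, edgeR adjusted p = 0.00289). Ncan, a proteoglycan gene of the brain, was at 1.68 ± 0.454 against 4.01 ± 1.22 CPM and did not pass. Ptn (log2 2.00 in replicate 1 and 0.97 in replicate 2) and the matrix gene Tnc (1.79 and 0.45), which fibroblasts also express, were highest in +dox replicate 1. Hes5, a Notch target of neural progenitors named after its values were seen, had 11 and 13 reads with dox and 38 and 29 without (edgeR adjusted p = 0.160).

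Close relatives of the members were counted too, as paralogues can take a share of each other's reads. Of 23 tested genes of the Pax, Nkx2, Sox, Zic, Olig and Neurog families, some of them in the lists above, edgeR and DESeq2 called 0. There were 3 with an unadjusted p below 0.05, all higher, and the median log2 fold change was 0.17 (0.14 to 0.39 with 1 library left out). Without +dox replicate 1, 1 was called (Neurog3). The largest differences at 1 CPM or more, next to Neurog3, were for Pax1, a sclerotome gene (log2 2.13 in replicate 1 and 0.53 in replicate 2), Pax2, a kidney and midbrain gene (0.13 and 1.09), and Nkx2-5, a heart gene (0.39 and 0.78).

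**Figure D3:**
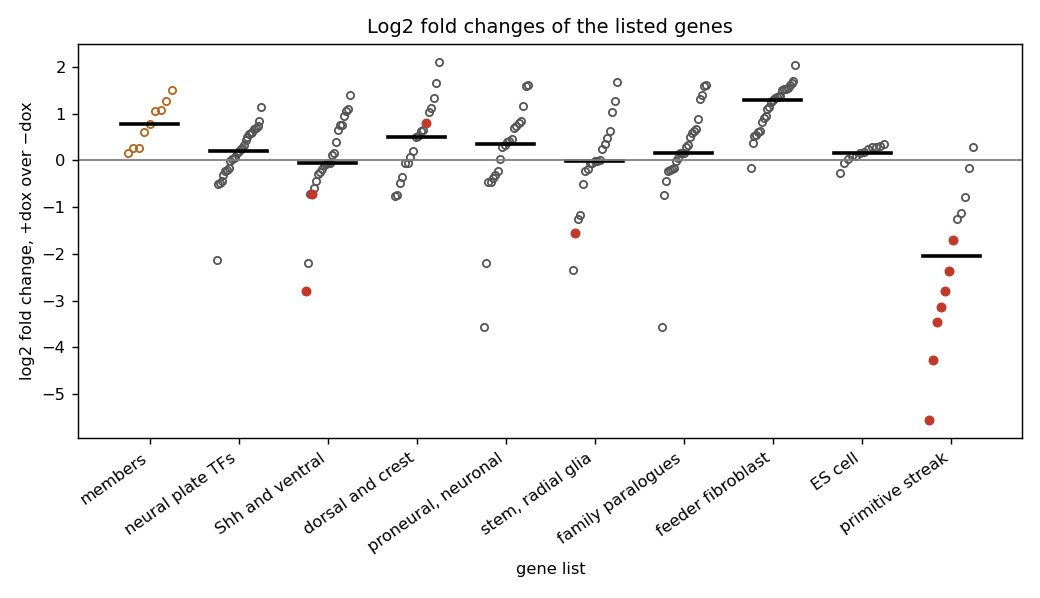
Log2 fold changes (+dox over −dox) of the tested genes of each list, in order of size, with a black bar at the list's median. Filled red points passed an adjusted p-value of 0.01 in edgeR, and the members (left, brown) are shown without a test. The medians of the 5 neural lists lie between −0.06 and 0.51, that of the fibroblast markers at 1.29 and that of the primitive streak markers at −2.04.

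Markers of other cells that the cultures could hold were read beside the members. Fibroblast markers were highest in +dox replicate 1, as above. Of the 25, edgeR and DESeq2 called 0, 18 had an unadjusted p below 0.05, all higher, and the median log2 fold change was 1.29 (1.68 in replicate 1, 0.31 in replicate 2, 0.29 in the fit without +dox replicate 1). Postn, a matrix gene, had 183 and 62 reads with dox and 27 and 45 without, and none of the 25 was at 0 in all libraries. The count of calls was 4 without +dox replicate 1 (3 higher, 1 lower) and 21 without +dox replicate 2, all higher. In replicate 2, where the sums were 865 and 789 CPM, Pax6, Nkx2-9 and Sox1 had +dox to −dox ratios of 2.44, 2.75 and 3.01. Whether fibroblast RNA had a part in these ratios was not tested. Of the 12 ES cell markers edgeR and DESeq2 called 0, with 6 at an unadjusted p below 0.05 (5 higher, 1 lower), and Pou5f1 was at 1201 ± 75.2 against 983 ± 47.1 CPM. Without +dox replicate 1, 3 of them were called, all higher (Dppa5a, Klf4 and Zfp42).

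The primitive streak and mesendoderm markers moved the other way. Of 12, edgeR called 7 lower and 0 higher, and 9 had an unadjusted p below 0.05, all lower. Among all genes tested, 0.519% were called lower and 9.31% were lower at that unadjusted level. Like the other lists, this one was drawn up with earlier results of these data known. The summed CPM of its 12 markers was 41.7 and 41.4 with dox and 173 and 202 without. T, the gene of brachyury, fell from 56.5 ± 14.4 to 6.46 ± 1.03 CPM (log2 −3.13 ± 0.20 SE, edgeR adjusted p = 1.73e-05). Lhx1, Fgf8, Eomes, Mixl1, Cer1 and Foxa2 (also in the Shh and ventral list) were the others that fell, with log2 fold changes from −5.55 (Cer1) to −1.71 (Eomes). The members and these markers come from the same 4 libraries, and whether the values are related was not tested. The number of calls in this list was 0 without −dox replicate 1 or without −dox replicate 2, which leaves a single −dox library, and 0 with deviances adjusted for small counts.

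**Figure D4:**
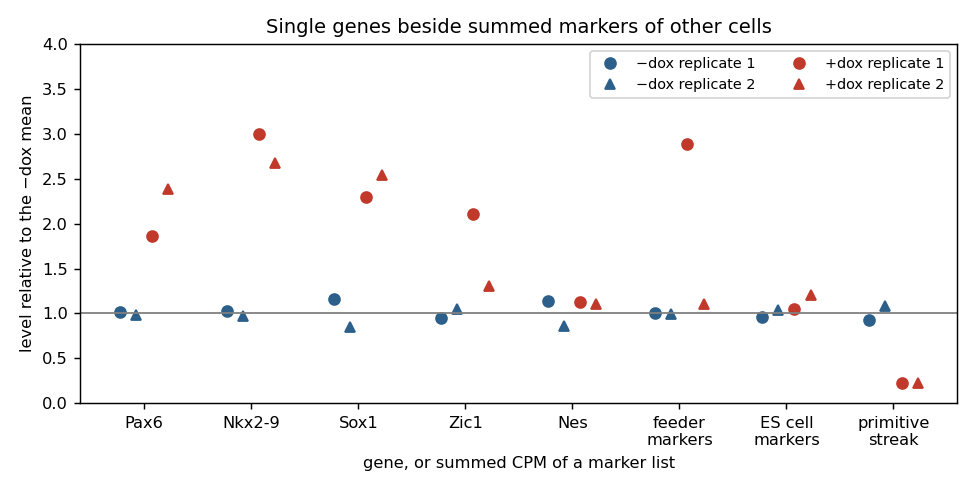
Level in each library divided by the mean of the −dox libraries, for 5 members and for the summed CPM of 3 marker lists, with colors and symbols as in the plot of CPM by library. The feeder markers are at 2.89 in +dox replicate 1 and 1.10 in +dox replicate 2, where Pax6 is at 1.86 and 2.39, Nkx2-9 at 3.0 and 2.67 and Sox1 at 2.30 and 2.54, and the primitive streak markers are at 0.223 and 0.221.

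For the 3 members above 1 CPM with the largest differences, the genes with the most similar levels over the 4 libraries were looked up among 13910 genes of at least 1 CPM. Similarity was the Euclidean distance between log2(CPM + 0.1) values centred on each gene's mean. Those nearest to Pax6 were Hhip (distance 0.144), the nectin gene Pvrl4 (0.149) and the homeobox gene Alx1 (0.179). For Nkx2-9 they were Prss32, a serine protease gene (0.230), Glipr1 (0.245) and Clvs2 (0.265). For Sox1 they were Casp14, a caspase gene of the epidermis (0.0684), Ms4a10 (0.143) and Xkrx (0.167). With 4 libraries in 2 groups, a small distance says little more than that the genes were higher with dox to a like degree.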

How the data were processed

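Polyadenylated RNA of clone A2 cells was read as 50-nt pairs in 2 +dox and 2 −dox libraries, grouped by their labels. After trimming (cutadapt), alignment to mm9 (TopHat2) and removal of PCR duplicates, the authors used HOMER to count unique reads on the exons of 1 RefSeq transcript per gene. The raw counts were deposited in a table per replicate. Tool versions and use of the strand are not given in the sources used here.

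The tables were joined by symbol (547 genes have different transcripts in them). Genes with at least 1 read in at least 1 library were tested with edgeR 4.0.16 in R 4.3.3 (TMM, quasi-likelihood test with defaults, no block, two-sided, Benjamini-Hochberg over all 20044 genes, threshold 0.01). CPM and RPKM were computed from the counts with TMM library sizes. Single-replicate log2 fold changes used a prior count of 2, except that those ratios quoted with intervals are plain ratios of CPM with exact 95% intervals for counting error. Standard errors come from the test statistic. Since the 2 libraries of a group differed by more than sampling noise (chi-square per degree of freedom 19.2 with dox, 13.2 without), both were kept. Nothing says whether they came from separate cultures beyond being called biological replicates. The p-values measure only the spread between these libraries. An exact permutation test of 2 against 2 libraries cannot go below a two-sided p of 0.333, so none was run.

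The members and all gene lists were chosen with earlier results of these data known. By rule, the genes named from each list were those called and the 4 with the largest absolute log2 fold change at a mean of 1 CPM or more, and from the chromosomal neighbours those of Pax6, Nkx2-9 and Sox1. A gene that this rule names is not reported here. The fit was tested on simulated counts. Alternatives were DESeq2 1.42.0, its size factors, total counts, filterByExpr, a replicate block, deviances adjusted for small counts, a threshold of 0.05, a minimum of 1 CPM for list medians and leaving out each library. Coordinates are mm9, except promoters (GRCm38.p6). The ChIP-seq and Hi-C data of the series were not used here.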

Additional observations from a re-analysis of the deposited data

How the results depend on the processing

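The number of all genes called (120) was 375 with DESeq2 (118 higher, 257 lower, against 16 and 104), 11 with filterByExpr, 0 with deviances adjusted for small counts, 573 at a threshold of 0.05, and from 0 to 992 with 1 library left out. For the 5 neural lists together, the count of 4 was 6 with DESeq2, 0 with filterByExpr, 0 with adjusted deviances, 9 at a threshold of 0.05, and 0 to 18 with 1 library left out. Each fit without a library leaves 1 in its group, +dox or −dox, and assumes that it varies like the other group. The cause of these shifts was not tested. With a replicate block the counts were 786 (316 higher, 470 lower) and 13 (7 higher, 6 lower). Same-numbered libraries deviated together with r = 0.196 across 13911 genes. Each of the 2 pairs shares a number and a count table, and whether its libraries were made together is not stated. The neighbours of the members, of which 9 of 21 averaged 1 CPM or more, gave 0 calls in every setting. Among single genes, the log2 fold change of Immp1l ran from −0.81 to 0.37 with 1 library left out, turning positive without +dox replicate 1 and without −dox replicate 2 (0.09). That of Gm5607 ran from −3.10 to 2.45 and was 0.24 without +dox replicate 1, and that of Ptch1 ran from −0.35 to 0.16. Over the settings with all libraries, the log2 fold change was 1.04 to 1.09 for Pax6, 1.46 to 1.51 for Nkx2-9 and 1.22 to 1.28 for Sox1, and with 1 library left out 0.89 to 1.25, 1.41 to 1.58 and 1.06 to 1.52. Depth limits Nkx2-2, Pax3, Olig2 and Neurog2.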
